A study of Homo sapiens with 2 samples.

Results

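The ABC genes, which encode proteins built around an ATP-binding cassette, were followed in a pair of RNA libraries from PLC/PRF/5 hepatoma cells labelled wildtype and MAEL KO. They were taken as the protein-coding genes of the deposited tables whose symbol is ABC, a subfamily letter from A to G and a number, which gave 45 of 58735 listed genes and 45 of 19951 protein-coding genes. By subfamily they were 12 ABCA, 9 ABCB, 11 ABCC, 4 ABCD, 1 ABCE, 3 ABCF and 5 ABCG genes. The name rule left out CFTR, TAP1 and TAP2, which belong to the same superfamily under other symbols.

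Most ABC proteins couple ATP hydrolysis to the movement of a substrate across a membrane. In the liver, members at the canalicular face secrete bile salts, phosphatidylcholine, sterols and conjugated organic anions into bile, and members at the basolateral face return conjugates and bile acids to blood. Several of these pumps also expel cytotoxic drugs, ABCA1 and ABCG1 hand cellular cholesterol to lipoprotein particles, and the ABCE and ABCF proteins have no membrane domain and work on ribosomes.

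The series compares 1 library labelled wildtype, from cells that were not treated, with 1 library labelled MAEL KO, both from the line the labels call 8024 and Alexander cells, a human liver line with epithelial shape. MAEL, or Maelstrom, is a germline gene that the study examined for its part in stem-like properties and drug resistance of hepatocellular carcinoma. The knockout was made by transfecting plasmids carrying Cas9 and an sgRNA against MAEL, sorting mCherry-positive cells and growing single clones. Whether the sequenced RNA came from 1 clone, and whether the wildtype cells were cloned, is not given in the sources used here, so a difference between the libraries cannot be told apart from a difference between clones.

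The MAEL WT library held 19904136 counts and the MAEL KO library 20833332. The floor was set at 3 counts, which is 0.151 CPM in MAEL WT and 0.144 CPM in MAEL KO, CPM being counts scaled to the library total. MAEL itself had 1 and 0 counts, both under the floor, so its RNA does not check the labels. The study chose this line for the highest MAEL level among its lines, by Western blot of protein, a level that these RNA counts do not show. All 10 hepatocyte markers examined were measured, and their summed level was 12983 CPM in MAEL WT and 25573 CPM in MAEL KO. Of the markers of other cells, none of 3 leukocyte markers reached 10 counts, with CD3E at 0 in both libraries, and the summed levels in MAEL WT and MAEL KO were 0.251 and 0.240 CPM for these, 4.97 and 0.576 CPM for 4 stellate cell or fibroblast markers, 17.7 and 19.5 CPM for 3 endothelial markers and 22.2 and 6.62 CPM for 4 cholangiocyte markers. The cholangiocyte markers KRT7 and KRT19 had 60 and 13 counts in MAEL WT and 1 count each in MAEL KO, and ALB, which encodes albumin, had 59 and 8550 counts. In RNA from a whole culture, fewer cells of a kind and less RNA per cell cannot be told apart. The part of these differences in the values below was not tested.

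Of the 45 ABC genes, 34 had at least 10 counts in at least 1 library and are called measured. The difference between libraries is given as the log2 ratio of MAEL KO to MAEL WT, computed from counts normalized by TMM with 1 added and called the log2 difference. With 1 library per group there is no replicate error and no test. Each 95% interval is a Clopper-Pearson interval of the MAEL KO share of that gene's reads, it covers counting error only, and it was free of 0 for 69.5% of all 17887 measured genes. An interval free of 0 therefore describes these libraries and does not set a gene apart.

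Read per length, in the FPKM values that the authors deposited, ABCC2 was the most abundant ABC gene over both libraries, followed by ABCF1, ABCD3, ABCE1 and ABCF3. ABCC2 encodes MRP2, the canalicular pump for bilirubin glucuronides and other conjugates, and stood at 68.9 FPKM in MAEL WT and 45.6 FPKM in MAEL KO. ABCF1, a ribosome-associated ATPase, stood at 45.03 and 62.0 FPKM and passed ABCC2 in MAEL KO. ABCD3, a peroxisomal transporter, stood at 19.1 and 40.0 FPKM, ABCE1 at 17.1 and 26.3 FPKM, and ABCF3 at 16.2 and 19.7 FPKM. At the other end, ABCA10, ABCG1 and ABCC8 were at 0.125, 0.239 and 0.0400 FPKM in MAEL WT and were listed at 0 in MAEL KO.

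**Figure D1:**
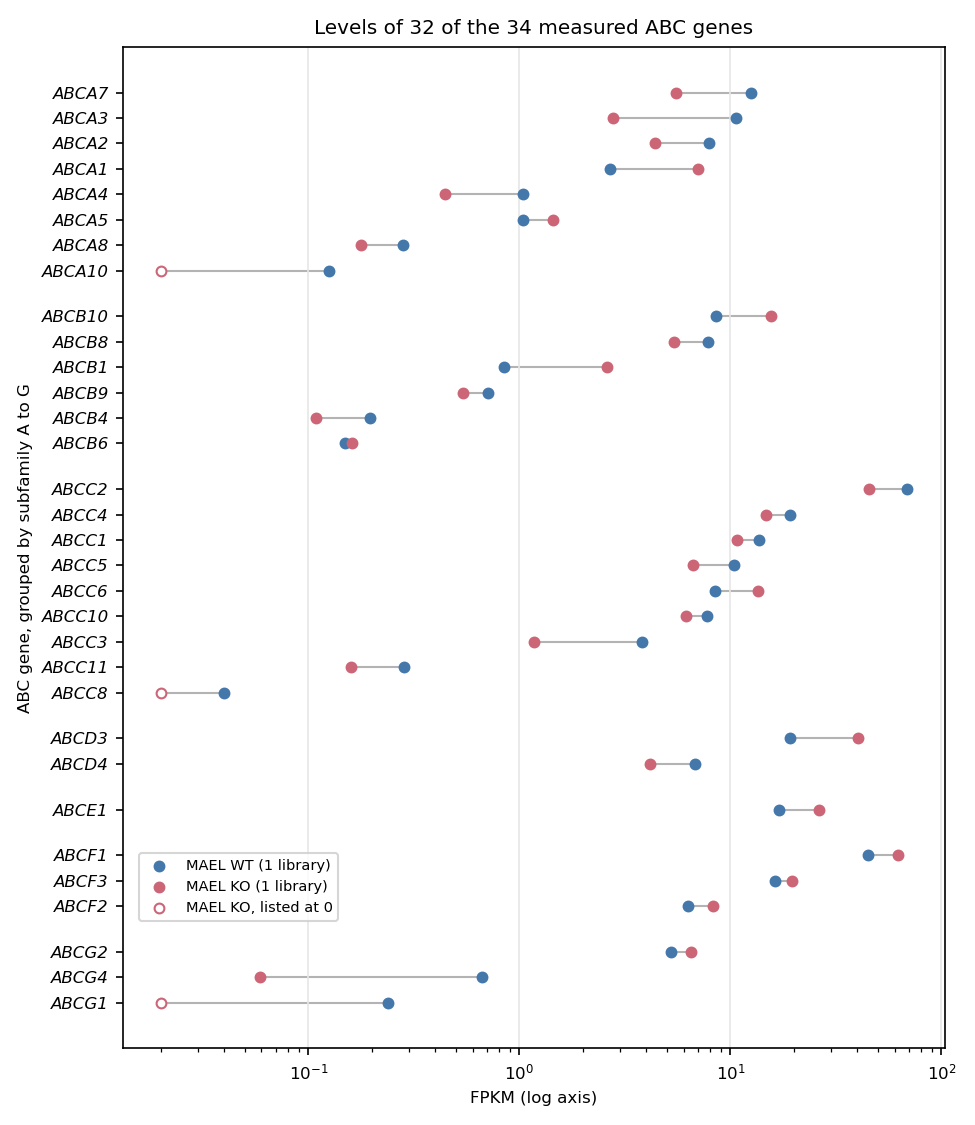
Deposited FPKM (log axis) of 32 of the 34 measured ABC genes in the MAEL WT library (blue) and the MAEL KO library (red), grouped by subfamily, with open points for genes listed at 0 drawn at the left edge. Levels run from 68.9 FPKM for ABCC2 in MAEL WT down to the 3 genes listed at 0 in MAEL KO, and the blue point lies to the right for most ABCA and ABCC genes.

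The 45 genes together took 50375 counts in MAEL WT and 42177 in MAEL KO, or 2531 CPM (95% Clopper-Pearson interval 2509 to 2553) and 2025 CPM (2005 to 2044). Their summed FPKM was 324 and 334, so the family as a whole was lower by CPM and nearly level by FPKM. CPM scales to the library total, and with total counts the median log2 ratio of all measured genes was also below 0, at -0.31. The lower CPM therefore does not set the family apart. FPKM carries the authors' scaling between libraries and weights short genes more. The make-up of the family differed. Subfamily C made up 47.5% (47.0 to 47.9) of the family's counts in MAEL WT and 36.3% (35.8 to 36.7) in MAEL KO, and subfamily A 14.6% (14.3 to 14.9) and 10.05% (9.76 to 10.3). Subfamily F made up 13.7% (13.4 to 13.96) and 18.8% (18.4 to 19.1), and subfamily D 11.2% (10.9 to 11.5) and 17.2% (16.9 to 17.6). ABCC2 alone held 23.4% and 16.1% of the family's counts.

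**Figure D2:**
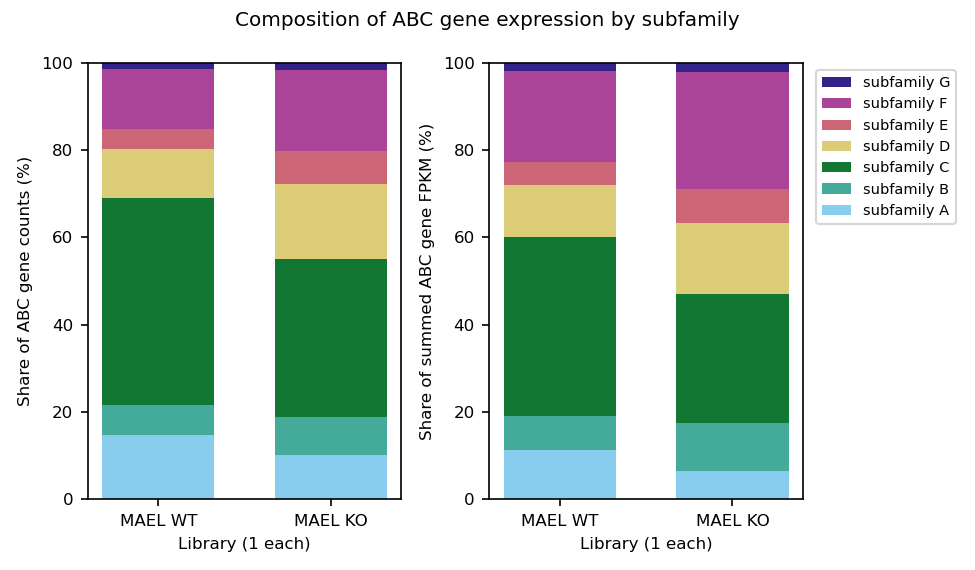
Share of the counts (left) and of the summed FPKM (right) of the 45 ABC genes held by each subfamily in the MAEL WT and MAEL KO libraries, 1 library each. Subfamily C (dark green) takes 47.5% of the counts in MAEL WT and 36.3% in MAEL KO, and by summed FPKM 40.9% and 29.6%.

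Of the 34 measured genes, 13 were above 0 and 21 below 0, and the intervals of 12 lay above 0, of 20 below 0, and of ABCB4 and ABCB6 across 0. Of all 17887 measured genes, the intervals of 6220 lay above 0 and of 6207 below 0. Of 13700 measured protein-coding genes, these numbers were 5482 and 4919. Interval counts of the lists below are to be read beside these. The median log2 difference of the 34 genes was -0.38, against -0.04 for all measured genes and 0.02 for measured protein-coding genes. ABCA1, ABCB1 and ABCD3 were above 1, which is 3 of 34 genes or 8.82%, against 10.2% of all measured genes. ABCA3, ABCA4, ABCA7, ABCA10, ABCC3, ABCC8, ABCG1 and ABCG4 were below -1, which is 8 of 34 genes or 23.5%, against 16.5% of all measured genes. None was above 2, against 2.16% of all measured genes, and 4 (ABCA10, ABCC8, ABCG1 and ABCG4) were below -2, or 11.8% against 5.64%. Each of these 4 had fewer than 10 counts in MAEL KO and was measured only through its counts in MAEL WT. A gene that enters this way can hardly lie above 0, so this share does not set the ABC genes apart. With genes at or under 3 counts in 1 library placed at their bound against 3 counts, ABCC8 no longer passed -2. The shares below -2 were then 8.82% of the ABC genes and 4.98% of all measured genes.

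These counts depended on genes with few reads. Among the 26 ABC genes with at least 100 counts in a library, the same 3 genes were above 1 (11.5%, against 1003 of 11144 protein-coding genes with that many counts) and 4 were below -1 (15.4%, against 922 of 11144 or 8.27%). None of the 26 was past 2 in either direction, against 1.48% above 2 and 2.26% below -2 of those protein-coding genes. When TMM factors were replaced by total counts, 2 of the 34 genes were above 1 and 11 below -1, against 6.56% and 22.5% of all measured genes, and the median of all measured genes moved from -0.04 to -0.31.

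**Figure D3:**
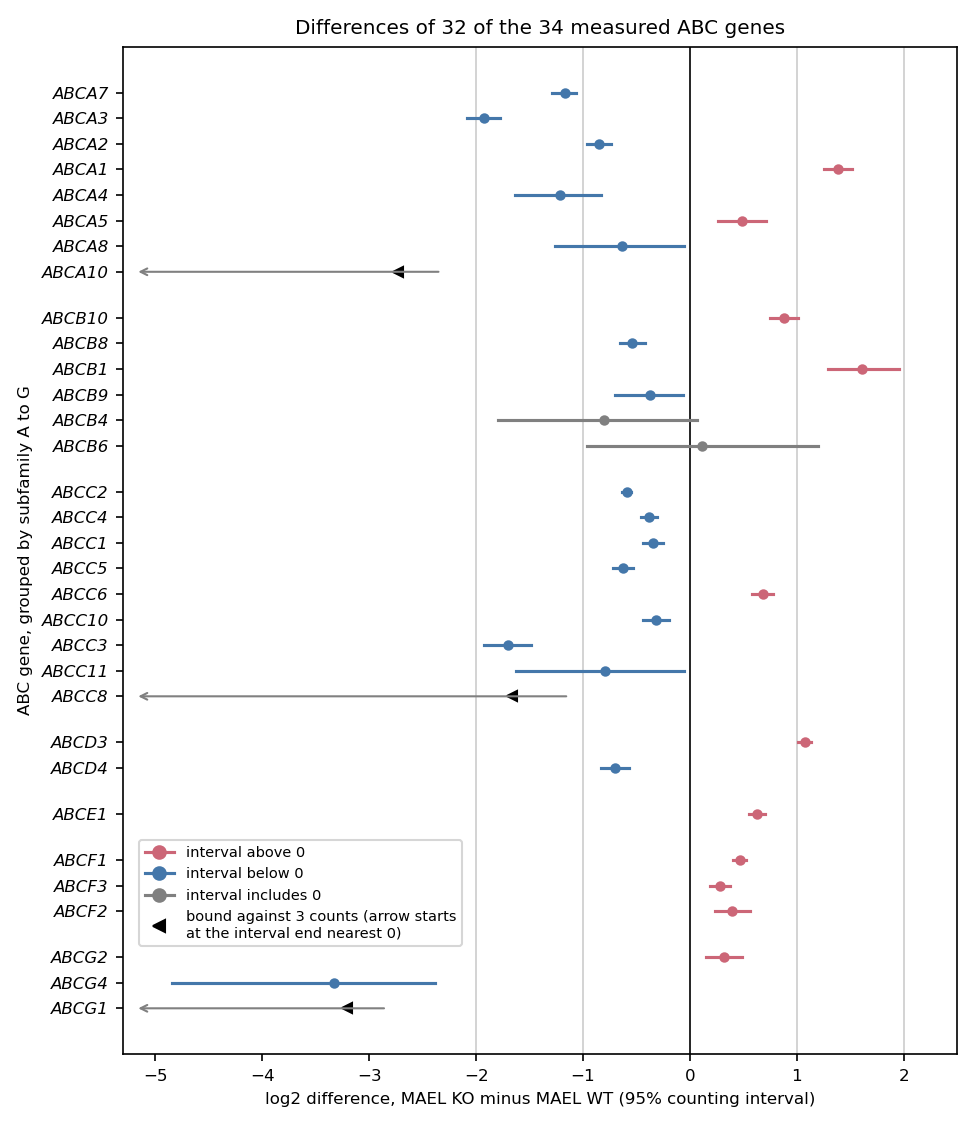
Log2 difference (MAEL KO minus MAEL WT) for 32 of the 34 measured ABC genes, with 95% counting intervals (bars) and with bounds against 3 counts for the genes at 0 in MAEL KO (triangles, with arrows from the interval end nearest 0). All 4 ABCE and ABCF genes lie above 0, and 8 of 9 ABCC genes lie below 0.

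**Figure D4:**
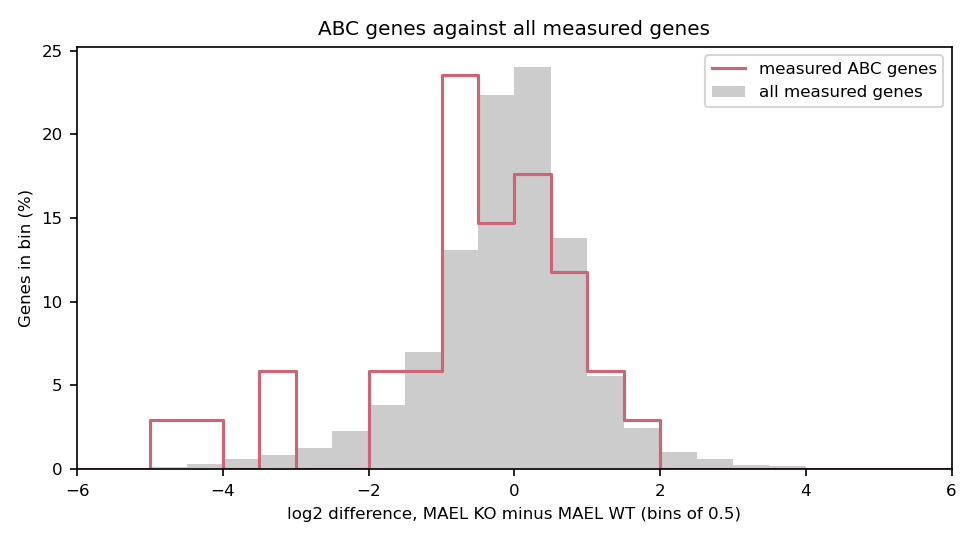
Distribution of the log2 difference (MAEL KO minus MAEL WT) in bins of 0.5, as the percent of all 17887 measured genes (grey bars) and of the 34 measured ABC genes (red line), genes at 0 being drawn at their fitted value. The red line has its peak between -1 and -0.5, where 23.5% of ABC genes and 13.1% of all genes lie, and ends below 2.

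The promoter windows of the 3 genes above 1, and of ABCA3 and ABCC2 for contrast, are shown here because they carry different combinations of common promoter letters. They are RefSeq windows on GRCh38.p14 from 250 bases before to 50 bases after a transcription start, read 5′ to 3′ on the gene's strand, and 35 of the 45 ABC genes have at least 1 such window. Capitals mark every match, on either strand, to 5 motifs: the GC box GGGCGG, the CCAAT box CCAAT, the TATA box TATAAA, the E-box CACGTG, and a direct repeat of GGTNA and GGTCA with 5 unspecified bases between them, which is the arrangement read by liver X receptors. These motifs were picked after looking at the windows. ABCA1 lies on the minus strand of chromosome 9 and its window is chr9:104928106-104928405, ABCB1 has windows at chr7:87713246-87713545 and chr7:87600835-87601134 on the minus strand, ABCD3 at chr1:94418139-94418438 on the plus strand, ABCA3 at chr16:2340679-2340978 on the minus strand and ABCC2 at chr10:99782390-99782689 on the plus strand.
ABCA1: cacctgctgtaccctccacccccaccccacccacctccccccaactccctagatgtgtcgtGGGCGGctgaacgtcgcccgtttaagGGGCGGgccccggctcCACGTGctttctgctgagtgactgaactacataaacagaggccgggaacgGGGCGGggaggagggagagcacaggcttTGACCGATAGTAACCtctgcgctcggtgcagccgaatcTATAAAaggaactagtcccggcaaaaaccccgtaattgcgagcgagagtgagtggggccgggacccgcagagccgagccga
ABCB1, upstream window: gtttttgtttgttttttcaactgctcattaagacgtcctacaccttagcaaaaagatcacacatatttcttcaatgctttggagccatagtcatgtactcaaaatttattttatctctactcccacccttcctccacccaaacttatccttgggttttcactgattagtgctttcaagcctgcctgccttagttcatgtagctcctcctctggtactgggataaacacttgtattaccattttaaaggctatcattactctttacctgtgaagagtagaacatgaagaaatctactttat
ABCB1, downstream window: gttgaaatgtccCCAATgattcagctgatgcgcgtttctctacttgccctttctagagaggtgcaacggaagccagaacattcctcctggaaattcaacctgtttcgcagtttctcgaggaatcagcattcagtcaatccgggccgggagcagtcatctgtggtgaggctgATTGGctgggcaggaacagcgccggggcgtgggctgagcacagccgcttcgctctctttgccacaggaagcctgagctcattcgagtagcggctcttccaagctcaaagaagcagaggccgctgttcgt
ABCD3: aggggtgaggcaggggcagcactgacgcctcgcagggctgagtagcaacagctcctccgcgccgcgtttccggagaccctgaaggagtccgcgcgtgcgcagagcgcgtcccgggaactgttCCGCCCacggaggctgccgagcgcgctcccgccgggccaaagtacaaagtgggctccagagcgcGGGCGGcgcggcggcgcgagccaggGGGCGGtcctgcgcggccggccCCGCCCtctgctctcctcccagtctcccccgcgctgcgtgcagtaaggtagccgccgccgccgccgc
ABCA3: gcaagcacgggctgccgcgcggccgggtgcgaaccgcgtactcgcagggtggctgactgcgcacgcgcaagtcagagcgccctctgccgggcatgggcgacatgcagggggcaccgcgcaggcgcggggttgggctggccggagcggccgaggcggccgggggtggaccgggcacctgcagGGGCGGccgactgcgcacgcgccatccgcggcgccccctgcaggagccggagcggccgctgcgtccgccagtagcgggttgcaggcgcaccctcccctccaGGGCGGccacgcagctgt
ABCC2: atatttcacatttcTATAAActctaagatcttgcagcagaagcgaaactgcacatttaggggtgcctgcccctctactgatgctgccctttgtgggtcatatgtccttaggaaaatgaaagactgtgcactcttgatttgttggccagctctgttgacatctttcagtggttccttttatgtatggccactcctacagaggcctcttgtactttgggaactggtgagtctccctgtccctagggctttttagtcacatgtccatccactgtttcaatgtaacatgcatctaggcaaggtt

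The ABCA1 window held the direct repeat on its reverse strand, between positions -69 and -55 from the start, together with 3 GC boxes, an E-box and a TATA box. This repeat was found in 84 of 35116 windows, or 0.239%, and in no other window of an ABC gene. GC boxes, found in 44.95% of all windows, numbered 4 in the ABCD3 window and 2 in the ABCA3 window. The downstream ABCB1 window held 2 CCAAT boxes, a motif of 34.6% of all windows, and the upstream window held none of the 5 motifs. The ABCC2 window held a TATA box, a motif of 11.5% of all windows, at positions -236 to -231. E-boxes occurred in 7.26% of all windows. A match is a match of letters and not a shown site.

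The multidrug efflux pumps, which lower the concentration of cytotoxic drugs and their conjugates in cells, were mostly lower in MAEL KO. All 9 genes of this list were measured, 7 had intervals below 0 and 2, ABCB1 and ABCG2, had intervals above 0. Their median log2 difference was -0.38, and together they held 46.0% (95% interval 45.6 to 46.5) of the family's counts in MAEL WT and 33.8% (33.4 to 34.3) in MAEL KO. By summed FPKM they stood at 130 in MAEL WT and 94.3 in MAEL KO.

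ABCB1 encodes P-glycoprotein, a pump for many hydrophobic drugs. It had 108 counts in MAEL WT and 287 in MAEL KO, a log2 difference of 1.61 (95% interval 1.30 to 1.95), the highest value among the 34 genes. It remained a low-level gene, at 0.850 and 2.61 FPKM. Its model at chr7:87503633-87713323 overlaps 85776 bases of RUNDC3B on the other strand, and RUNDC3B had 41 and 185 counts. Whether the counting used strand is not given in the sources used here, and without strand the reads of overlapping exons of a gene and its antisense partner cannot be told apart.

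ABCG2, or BCRP, is a pump for sulfated conjugates and drugs that works as a dimer. It had 575 counts in MAEL WT and 621 in MAEL KO, a log2 difference of 0.32, which was 0.05 with total counts. The difference of ABCG2 was thus smaller than that of ABCB1 under both scalings.

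ABCC1, which encodes MRP1, a pump for glutathione conjugates, had 2262 counts in MAEL WT and 1544 in MAEL KO, a log2 difference of -0.34. ABCC2 had 11802 and 6773 counts, a log2 difference of -0.59. ABCC4, or MRP4, which exports cyclic nucleotides and bile acids, had 3630 and 2404 counts (-0.38). These 3 abundant pumps were thus 1.27-fold, 1.51-fold and 1.31-fold lower in MAEL KO.

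ABCC5, a pump for cyclic nucleotides and nucleotide analogues, had 2593 counts in MAEL WT and 1449 in MAEL KO (-0.63), and ABCC10 had 1364 and 947 counts (-0.32). ABCC11 was scarce, with 45 and 22 counts (-0.80). Its model overlaps LONP2, a gene of 1464 and 1404 counts on the other strand, and ABCC10 overlaps 79 bases of DLK2.

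The largest difference among the pumps was that of ABCC3, or MRP3, a basolateral exporter of glucuronides at chr17:50634777-50692252. It had 802 counts in MAEL WT and 213 in MAEL KO, or 3.81 and 1.17 FPKM, a log2 difference of -1.70 (95% interval -1.93 to -1.48). By FPKM, ABCC3 stood above ABCA1 in MAEL WT and below it in MAEL KO.

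The hepatocyte exporters of bile and of the basolateral face were partly below detection. Of 10 genes on this list, 7 were measured, of which 3 had intervals above 0 and 3 below 0. ABCB11, the bile salt export pump, had 1 count in MAEL WT and 0 in MAEL KO, ABCG5 had 4 and 3 counts, and ABCG8, its partner in a sterol pump of the canaliculus, had 3 and 5. The canalicular pumps for bile salts and for sterols thus had at most 5 counts in either library, under the limit for a measured gene, while the 10 hepatocyte markers were all above 0, with a median log2 difference of 1.60.

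ABCB4, the canalicular floppase for phosphatidylcholine, had 33 counts in MAEL WT and 16 in MAEL KO, a log2 difference of -0.80 whose interval of -1.79 to 0.07 held 0. It lies 23197 bases from ABCB1 on the same strand of chromosome 7, and the neighbours had values of opposite sign. ABCC6, a basolateral transporter of liver whose loss causes ectopic mineralization, had 1402 and 1945 counts, a log2 difference of 0.68 (95% interval 0.58 to 0.78). Its near-identical copies ABCC6P1, with 154 and 446 counts, and ABCC6P2, with 72 and 102 counts, may share reads with it, and with the 3 genes summed the value was 0.82. ABCC6 was the only one of the 9 measured ABCC genes above 0, and ABCC1, which lies 5853 bases away on the opposite strand, was at -0.34.

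Genes on the list of sterol and phospholipid exporters made up most of the genes below -1. The list holds all ABCA genes with ABCB4, ABCG1, ABCG4, ABCG5 and ABCG8, and its name does not mean that each is an exporter. Of 17 genes on this list 11 were measured, 2 were above 0 and 9 below 0, and 6 were below -1. Among these 6, ABCA10, ABCG1 and ABCG4 had fewer than 100 counts in both libraries. Of all measured genes, 16.5% were below -1. The median log2 difference of the 11 measured genes was -1.17, and -1.01 among those with at least 100 counts in a library. The group held 15.0% (95% interval 14.6 to 15.3) of the family's counts in MAEL WT and 10.1% (9.84 to 10.4) in MAEL KO.

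ABCA1, which loads cholesterol and phospholipid onto apolipoprotein A-I, was the gene of this list above 1. It had 667 counts in MAEL WT and 1508 in MAEL KO, or 2.69 and 7.01 FPKM, a log2 difference of 1.39 (95% interval 1.25 to 1.52). The gene is at chr9:104781002-104928237. APOA1, which encodes its acceptor, had 419 and 4400 counts.

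ABCG1, which passes sterol to high-density lipoprotein and shares the liver X receptor as a regulator with ABCA1, had 32 counts in MAEL WT and 0 in MAEL KO. Against the floor of 3 counts in MAEL KO, ABCG1 was 9.22-fold lower (interval limit -2.82 on the log2 scale). Its relative ABCG4 had 91 and 7 counts, a log2 difference of -3.33 (95% interval -4.84 to -2.39). With ABCG5 and ABCG8 near the floor, ABCG2 was the only ABCG gene with more than 10 counts in MAEL KO. The median of the 3 measured ABCG genes was -3.33, or -3.20 with ABCG1 at its bound, and 0.32 with at least 100 counts, when ABCG2 alone is left.

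ABCA3, a lipid transporter of lysosome-related organelles known for lung surfactant, had 1817 counts in MAEL WT and 412 in MAEL KO, or 10.6 and 2.78 FPKM. Its log2 difference was -1.93 (95% interval -2.09 to -1.77), the largest difference of an ABC gene with at least 100 counts, and -2.20 with total counts. ABCA3, at chr16:2275881-2340746, overlaps its relative ABCA17P on the other strand, which had 23 and 21 counts.

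ABCA7, which exports phospholipid and is linked to Alzheimer disease, had 2296 counts in MAEL WT and 880 in MAEL KO, a log2 difference of -1.17 (95% interval -1.29 to -1.06). ABCA4, the retinoid-lipid importer of photoreceptors, had 195 and 72 counts, a log2 difference of -1.22 (95% interval -1.64 to -0.83). ABCA2, a lysosomal sterol transporter, had 1991 and 955 counts (-0.85, and -1.12 with total counts). Of the 4 most abundant ABCA genes by FPKM, ABCA1 was thus higher in MAEL KO and ABCA2, ABCA3 and ABCA7 were lower.

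The ABCA5, ABCA6, ABCA8, ABCA9 and ABCA10 genes form a cluster on chromosome 17. ABCA5 had 299 counts in MAEL WT and 362 in MAEL KO (0.48), and ABCA8 had 69 and 38 (-0.64). ABCA10 had 23 and 0 counts, 6.63-fold lower against the floor of 3 counts (interval limit -2.31). ABCA6 had 1 and 8 counts and ABCA9 had 3 and 0, both under the limit for a measured gene. Members of 1 cluster thus lay on both sides of 0, and ABCA5 and ABCA10 share 536 bases on the same strand.

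The peroxisomal and lysosomal transporters were split by gene. ABCD3, or PMP70, which imports branched-chain and bile acid precursor acyl-CoA esters into peroxisomes, had 3163 counts in MAEL WT and 5759 in MAEL KO. Its log2 difference was 1.07 (95% interval 1.01 to 1.14), and 0.80 with total counts. ABCD2 had 4 and 0 counts, under the limit for a measured gene. ABCD4, which acts in lysosomal cobalamin export, had 1305 and 694 counts (-0.70), and ABCB9, a lysosomal peptide transporter, had 206 and 137 (-0.38). ABCD3 was therefore the only gene of the 4 measured on this list above 0.

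Genes for peroxisome assembly and for the oxidation of long-chain and branched acyl-CoA lay on the same side as ABCD3. Of 12 such genes, all measured, 11 had intervals above 0 and 1, ACSL1, below 0. The median was 0.76, or 0.48 with total counts. PEX3, a peroxisomal membrane import factor, had 455 counts in MAEL WT and 953 in MAEL KO. AMACR, which acts on bile acid precursors, had 35 and 106.

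The mitochondrial transporters lay on both sides of 0, with a median of 0.39, or 0.12 with total counts. ABCB10, which supports haem synthesis, had 792 counts in MAEL WT and 1258 in MAEL KO (0.88). ABCB8 had 1603 and 953 (-0.54). ABCB6 had only 17 and 16 counts, and a gene model of 19 and 5 counts overlaps 9246 bases of its span, introns included, on the same strand. How reads lying in both were assigned is not given in the sources used here, so the ABCB6 counts may leave some out. Among 15 genes of haem synthesis and iron-sulfur assembly the intervals of 10 lay above 0 and of 3 below 0. Their median was 0.32, or 0.04 with total counts.

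The soluble ATPases lay above 0 as a group. ABCE1, which splits ribosomes after termination, had 2339 counts in MAEL WT and 3122 in MAEL KO (0.63), and its model overlaps 18342 bases of OTUD4, a gene of 1056 and 1207 counts on the other strand. ABCF1, a cofactor of initiation factor eIF2, had 4455 and 5320 (0.47). ABCF2 had 574 and 653 (0.40), and ABCF3 had 1849 and 1942 (0.28).

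All 4 had intervals above 0, with a median of 0.43, and none reached 1. With total counts their values ran from 0.005 for ABCF3 to 0.35 for ABCE1. Together these genes held 18.3% (95% interval 18.0 to 18.6) of the family's counts in MAEL WT and 26.2% (25.7 to 26.6) in MAEL KO. Of 10 ribosome rescue and initiation factors, all were above 0, 8 with intervals above 0, and the median was 0.23, which was -0.05 with total counts.

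Of the sulfonylurea receptors, which are regulatory subunits of ATP-sensitive potassium channels, ABCC8 had 11 counts in MAEL WT and 0 in MAEL KO. Against the floor of 3 counts ABCC8 was 3.17-fold lower (interval limit -1.12), and ABCC9 was at 0 in both. The pore gene KCNJ11 had 159 and 85 counts. ABCB5 and ABCC12 were at 0 in both libraries, ABCA12 had 4 and 3 counts, and ABCA13 had 7 and 0. A count of 0 allows up to 3 counts, or 0.151 CPM in MAEL WT and 0.144 CPM in MAEL KO.

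The ABC proteins with other symbols were all lower in MAEL KO. CFTR, a chloride channel of bile duct and other epithelia, had 207 counts in MAEL WT and 63 in MAEL KO, a log2 difference of -1.49 (95% interval -1.94 to -1.09). TAP1 and TAP2, which form the peptide transporter of antigen presentation, had 1636 and 506 counts (-1.48) and 656 and 320 counts (-0.82).

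Partner genes of these transporters were read as lists. Of 12 measured nuclear receptors and factors of bile acid and sterol control, 6 had intervals above 0 and 3 below 0, with a median of 0.23, or -0.05 with total counts. NR1H4, which encodes the bile acid receptor FXR, had 9 counts in MAEL WT and 270 in MAEL KO, a log2 difference of 4.96 (95% interval 4.17 to 6.26). Among the genes that FXR is known to act on, ABCB11 had 1 and 0 counts and NR0B2 had 28 and 30 counts. These do not stand for all FXR targets, which were not read as a list. NR1H3 and NR1H2, the liver X receptors, had 885 and 893 counts (0.22) and 1889 and 958 counts (-0.77).

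Of 9 measured liver X receptor targets other than ABC genes, 6 had intervals above 0 and 2 below 0. Their median was 0.38, or 0.10 with total counts. PLTP, a phospholipid transfer protein, had 156 counts in MAEL WT and 26 in MAEL KO (-2.33). The named ABC targets of this receptor also lay on both sides, with ABCA1 at 1.39 and ABCG1 at 0 counts in MAEL KO. Of 9 measured genes of bile acid synthesis, conjugation and uptake, 4 had intervals above 0 and 1 below 0. Their median was 0.51, 0.24 with total counts, and -0.02 among those with at least 100 counts in a library. BAAT, which conjugates bile acids to glycine and taurine, had 5 and 92 counts (4.15), while CYP7A1, the first enzyme of the classic pathway, was at 0 in both libraries.

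On the list of membrane scaffolds and chaperones of efflux pumps, 6 of 10 measured genes had intervals above 0 and 2 below 0. The median was 0.19, or -0.08 with total counts. The name of the list does not mean that each gene holds a pump at the membrane. PDZK1, which binds the tails of ABCC2 and ABCG2, had 134 counts in MAEL WT and 811 in MAEL KO, a log2 difference of 2.80 (95% interval 2.54 to 3.08). SLC9A3R1, a related scaffold, had 2752 and 6828 counts (1.52), and radixin, from RDX, which anchors ABCC2, had 3007 and 2978 (0.20). HAX1, a binding partner of the bile salt pump, had 4004 and 1715 (-1.01). ABCC2 RNA, at -0.59, and the scaffolds PDZK1 and SLC9A3R1 thus lay on opposite sides of 0.

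**Figure D5:**
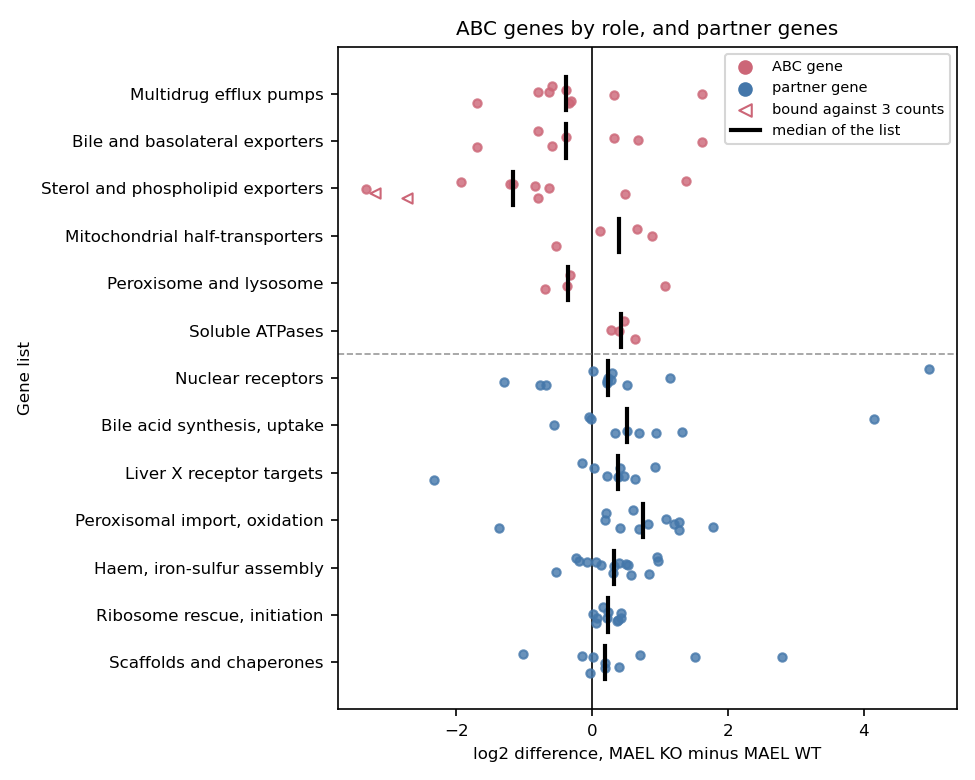
Log2 difference (MAEL KO minus MAEL WT) for each measured ABC gene by role (red, above the dashed line) and for each measured partner gene (blue), with the list median as a black bar and genes at 0 in MAEL KO as open triangles at their bound against 3 counts. Of the 13 lists drawn, the sterol and phospholipid exporters have the lowest median, -1.17, and the peroxisomal partner genes the highest, 0.76, and vertical scatter within a row has no meaning.

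Of 16 pseudogene and antisense rows named after ABC genes, 4 were measured and 9 were at 0 in both libraries. ABCC6P1 and ABCC6P2 are given above with ABCC6, ABCA17P with ABCA3, and ABCA11P had 12 counts in MAEL WT and 26 in MAEL KO. When the 14 measured ABC genes that overlap another gene with at least 10 counts over both libraries were left out, 1 of the remaining 20 genes, ABCD3, was above 1 and 6 were below -1. Of all measured genes, without this overlap rule, 10.2% were above 1 and 16.5% below -1. The rule was not applied to all measured genes. ABCB1 was left out for RUNDC3B. ABCA1, with 667 and 1508 counts, was left out for an antisense gene of only 8 and 20 counts that overlaps 685 bases.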

How the data were processed

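A single HiSeq library per genotype was made by the authors from RNA of PLC/PRF/5 (8024) cells. The authors deposited read counts per gene, without normalization, and FPKM values, which equal count over listed length over a library size of 1.10 (MAEL WT) and 0.910 (MAEL KO) times the total counts. The submitters' processing notes list HISAT2 2.0.5, featureCounts 1.5.0-p3 and hg19, whereas the coordinates of all 58735 listed genes match GENCODE 29 on GRCh38, and these are given. The strand setting of the counting is not given in the sources used here.

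TMM factors (edgeR 4.0.16, R 4.3.3) were 1.10 and 0.909. Log2 differences and Clopper-Pearson intervals were computed with SciPy 1.17.1 in Python 3.11.15 for genes with at least 10 counts in 1 library. A gene at or under 3 counts in 1 library is given as a bound against 3 counts, beside the interval end nearest 0 (interval limit). The bound leaves out counting error in the other library, so the interval limit can lie nearer 0 than the bound. Neither intervals nor floors cover more than counting error, and reads lacking molecular identifiers do not count independent molecules. The study's threshold of 2 on the log2 scale was used beside 1. No p-value is given, since 1 library per group leaves no replicate error. The steps were run on simulated counts that hold counting error only and reuse the library sizes of these data. This run tests neither the normalization nor variation between replicates. Alternatives were DESeq2 1.42.0 size factors, total counts, protein-coding TMM factors, FPKM ratios with 0.01 added, added counts of 0.1 and 5, no count filter and at least 100 counts.

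Genes named are members past 1, the 5 highest by mean FPKM, all drug efflux and bile exporters, partner genes past 2, and CFTR, TAP1 and TAP2. Other members and partner genes were named for their known roles after their values were seen. Members and lists were chosen with earlier results of these data known, and list medians are descriptions. Some genes of these lists enter the counts and medians but are not reported by name here.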

Additional observations from a re-analysis of the deposited data

How the results depend on the processing

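With 1 library per group, no result has a replicate check and no library could be left out. No paired analysis was possible because each group has 1 library and no result comes from a test. The number of ABC genes below -1 was 4 with at least 100 counts, against 8, and the number below -2 was 0, against 4. Without a count filter 1 gene, ABCA6 with 1 and 8 counts, was above 2, against 0. An alternative chosen after seeing the data, leaving out ABC genes that overlap another gene with at least 10 counts over both libraries, left 1 gene above 1, against 3. This overlap rule was not applied to all measured genes, so no share stands beside that number. It also drops ABCA1, whose antisense gene had only 8 and 20 counts. With total counts 2 genes were above 1 and 11 below -1, against 3 and 8 with TMM, the shares of all measured genes were 6.56% and 22.5%, against 10.2% and 16.5%, the median of the 34 genes was -0.66, and the median of all measured genes moved from -0.04 to -0.31. That scaling moved 23 of the 34 gene values beyond their counting intervals, brought ABCD3 to 0.80 and turned the sign of ABCB6 to -0.14, of the median of the ABCB genes to -0.14, and of the medians of the nuclear receptors, the ribosome factors and the scaffolds to -0.05, -0.05 and -0.08. DESeq2 size factors, protein-coding TMM factors, FPKM ratios and an added count of 0.1 moved no gene beyond its interval, and an added count of 5 moved only ABCG1, to -2.80. The median of the ABCG genes turned from -3.33 to 0.32 with at least 100 counts, when only ABCG2 is left, and that of the bile acid synthesis, conjugation and uptake genes from 0.51 to -0.02. Without a count filter the ABCB median was -0.13. Counts limit the ABC genes of low level: 11 of 45 could not be measured at this depth.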
